A study of Mus musculus with 9 samples.

Results

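The genes described here encode the smooth muscle and nonmuscle members of myosin II and the kinase that switches them on. They are the heavy chains Myh9, Myh10, Myh11 and Myh14, the light chains Myl6, Myl9, Myl12a and Myl12b, and the myosin light chain kinase Mylk. Probe sets were taken where the platform annotation names one of these 9 genes alone, which gave 19 of the 45037 probe sets tested, for 9 of 18193 measured genes. Myh9 had 5 probe sets, Mylk 3, and Myh10, Myh11, Myl12a and Myl12b 2 each, while Myh14, Myl6 and Myl9 had 1 each. A further 2 probe sets carry Myl6 together with predicted genes and were kept apart.

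The tissue was peripheral blood, taken from E12.5 mouse embryos of a mixed C57BL6/129SvEv background, and total RNA was measured on arrays. The embryos came from crosses between heterozygous carriers of a Cbfb allele called ΔC95. They were wild type (Cbfb+/+), heterozygous (Cbfb+/ΔC95) or homozygous (CbfbΔC95/ΔC95). All groups shared tissue, stage and background, and each RNA came from the pooled blood of 8 to 10 embryos of a genotype. There were 3 arrays per genotype, 9 in all, a number that limits precision. Separate pools behind the 3 arrays are not stated, so p-values measure the spread between arrays, which may be technical. Cbfb encodes CBFβ, the partner of the DNA-binding RUNX proteins. The allele is known as a germline knock-in for the leukemia fusion protein CBFβ-SMMHC without its C-terminus, and the series title concerns that end of the protein. Myh11 encodes SMMHC, the smooth muscle myosin heavy chain that supplies the fusion partner.

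A myosin II molecule holds a pair of heavy chains, each with an essential and a regulatory light chain. The heavy chain tails form coiled coils and assemble into filaments that pull on actin. Phosphorylation of the regulatory light chain by Mylk or by other kinases activates the motor, and myosin phosphatase reverses it. In blood, nonmuscle myosin II is known for its part in platelet formation and in the division of blood cells.

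All values are log2 intensities as the authors deposited them, with nearly the same median on every array. Array medians lay between 4.27 and 4.30, and arrays of a genotype correlated at 0.996 to 0.998 over all probe sets. The single Cbfb probe set was at 6.00, 6.04 and 5.98 in wild-type, 5.73, 5.80 and 5.79 in heterozygous and 4.93, 5.13 and 5.25 in homozygous arrays. Its place relative to the altered end of the gene was not analysed here, so these values are no test of the genotypes. Poly-A spike-ins, bacterial RNAs added before labelling, were higher than in wild type by 1.58 in homozygous and 0.88 in heterozygous arrays (24 probe sets). All differences below are relative to the bulk of transcripts on an array. With spike-ins set equal instead, each difference from wild type would be lower by those amounts, and every rise of a myosin gene reported here would turn negative. Embryonic red cell genes marked the tissue as labelled, with the embryonic globin genes Hba-x and Hbb-y at wild-type means of 14.30 and 14.18.

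Myh9 was higher in heterozygous blood by 3 of its 5 probe sets, and Myh10 and Myl12a by 1 of 2 each. In homozygous blood Myl9 was lower by its only probe set and Myl12b by 1 of 2, while Myh9 was higher by 1 of 5. All these differences from wild type were less than 1.5-fold. "Passed" means an adjusted p under 0.05 in limma, a linear model fitted to all probe sets and arrays with Benjamini-Hochberg adjustment over the 45037 probe sets. In heterozygous blood 5 of the 19 probe sets passed and all 5 were higher, 3 of Myh9 and 1 each of Myh10 and Myl12a, where 8.56% of all probe sets passed, 3.41% higher and 5.15% lower. In homozygous blood 3 passed, where 20.0% of all probe sets did, 8.34% higher and 11.7% lower, with Myl9 and Myl12b lower and 1 Myh9 probe set higher. The Myl12b call was lost in 8 of the 9 omissions of an array. Between homozygous and heterozygous blood 4 passed, against 12.1% of all probe sets (4.17% higher and 7.95% lower), and all 4 were lower in homozygous blood. They were of Myh9, Myh10, Myl9 and Myl12b. That single direction depended on the scaling, since with arrays centred on reference genes 5 passed, 3 lower and 2 higher, the latter of Myh11 and Myh14. In all, 7 probe sets of 5 genes passed at least once, and Myh11, Myh14, Myl6 and Mylk passed in no comparison. The median difference over the 19 probe sets was 0.12 in heterozygous, against 0.01 over all probe sets, and 0.06 in homozygous blood, against 0.04. Arrays of the groups did not overlap in 9 of the 19 probe sets for heterozygous against wild type, compared with 24.1% of all probe sets, and in 7 of 19 for homozygous against wild type, compared with 32.4%. For homozygous against heterozygous they did not overlap in 7, compared with 25.7%. The comparisons share arrays, the wild-type ones in both comparisons with wild type.

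**Figure D1:**
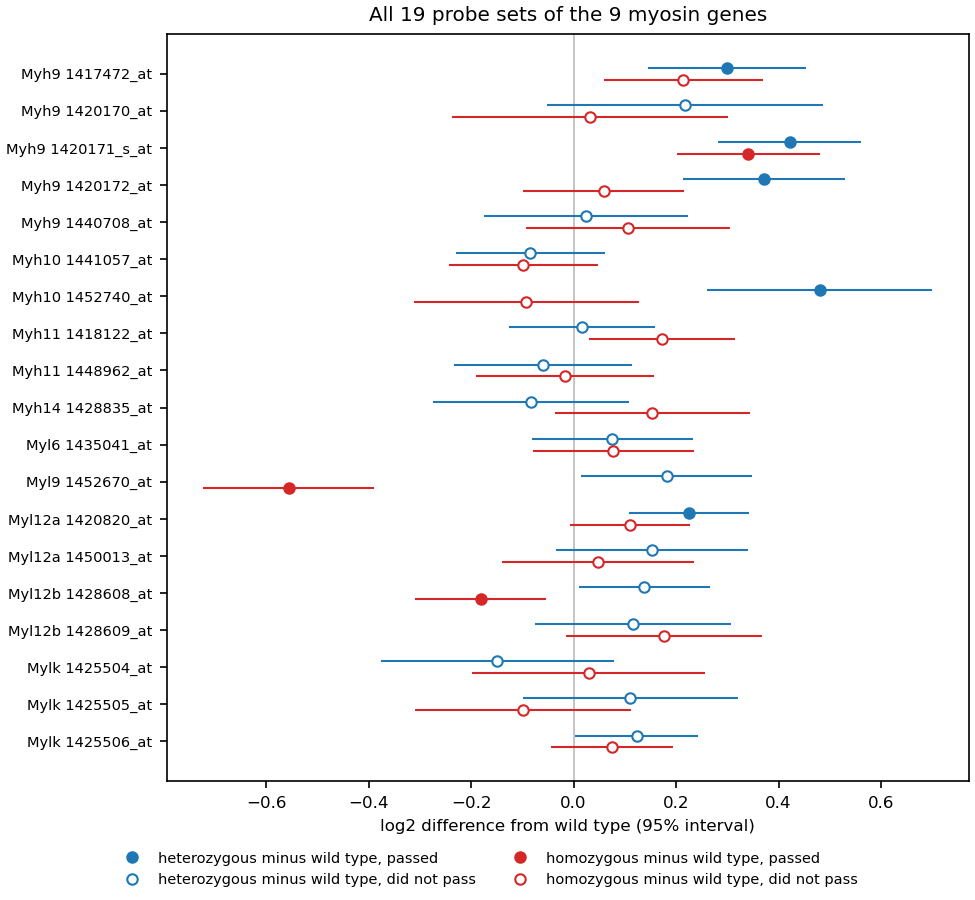
Log2 difference from wild type (x axis) for each of the 19 probe sets (y axis), heterozygous in blue and homozygous in red, with 95% intervals from the model; filled points passed. Myl9 at -0.56 in homozygous blood and Myh10 at 0.48 in heterozygous blood lie farthest from 0.

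Myh9 encodes nonmuscle heavy chain IIA, the heavy chain of platelets and many blood cells. It was higher in heterozygous blood by 3 of its 5 probe sets. Probe set 1420171_s_at read 6.59, 6.75 and 6.68 in wild-type, 7.09, 7.06 and 7.14 in heterozygous and 7.10, 6.94 and 7.01 in homozygous arrays. All 6 mutant arrays were above all wild-type arrays, and the mutant genotypes overlapped each other. The heterozygous difference was 0.42 ± 0.06 (SE, n = 3 per group; 1.34-fold, limma adjusted p = 0.00144), and the homozygous one was 0.34 ± 0.06 (1.27-fold, limma adjusted p = 0.00197). Bulk blood cannot tell more cells of a type from more RNA per cell, for this and every other gene here.

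The brightest Myh9 probe set, 1417472_at, read 6.68, 6.88 and 6.73 in wild-type, 6.99, 7.09 and 7.11 in heterozygous and 7.05, 6.99 and 6.89 in homozygous arrays. Again no mutant array reached down to the wild-type range, and the steps were smaller. The heterozygous difference of 0.30 ± 0.07 passed (1.23-fold, limma adjusted p = 0.0205), whereas the homozygous difference of 0.21 missed the threshold (limma adjusted p = 0.0532). The heterozygous call was lost when wild-type replicate 1 or 3 or heterozygous replicate 2 or 3 was left out, with adjusted p from 0.0159 to 0.0916 over the 9 omissions. It was also lost with arrays centred on reference genes, at 0.17. The homozygous difference passed without wild-type replicate 2, at 0.27, or without homozygous replicate 3, at 0.26.

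Another Myh9 probe set separated the mutant genotypes. Probe set 1420172_at read 6.15, 6.17 and 6.04 in wild-type, 6.57, 6.41 and 6.49 in heterozygous and 6.16, 6.29 and 6.07 in homozygous arrays. Only the heterozygous genotype had all its arrays above wild type here, with a difference of 0.37 ± 0.07 (SE; 1.29-fold, limma adjusted p = 0.00652). Homozygous arrays overlapped wild type. Homozygous blood was lower than heterozygous by 0.31 on the log2 scale, a difference of -0.31 ± 0.07 (limma adjusted p = 0.0138). That call was lost without heterozygous replicate 1, at -0.27, and without homozygous replicate 3, at -0.26, and with reference gene centring, at -0.21, or -0.18 without Actb. The remaining Myh9 probe sets, 1420170_at and 1440708_at, had genotype means between 4.41 and 4.63 and passed in no comparison. The probe sets of Myh9 thus disagree on homozygous blood, with differences from wild type between 0.03 and 0.34.

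Myh10 encodes nonmuscle heavy chain IIB, abundant in neural and mesenchymal tissue. Probe set 1452740_at read 5.75, 5.56 and 5.75 in wild-type, 6.00, 6.37 and 6.14 in heterozygous and 5.57, 5.47 and 5.75 in homozygous arrays. The heterozygous arrays were all above the others, and wild-type and homozygous arrays overlapped. Heterozygous blood was higher than wild type by 0.48 ± 0.10 (SE, n = 3 per group; 1.39-fold, limma adjusted p = 0.0102), a call that was lost without wild-type replicate 2, at 0.41 (adjusted p = 0.0541). Homozygous minus heterozygous was -0.57 ± 0.10 (1.49-fold, limma adjusted p = 0.0025). The homozygous difference from wild type was -0.09, with a 95% interval from -0.31 to 0.13. The other Myh10 probe set, 1441057_at, stayed between 2.77 and 3.05 on all 9 arrays and did not pass.

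Myh11, the smooth muscle heavy chain and source of the fusion partner, passed in no comparison. Probe set 1418122_at read 6.27, 6.33 and 6.37 in wild-type, 6.32, 6.35 and 6.35 in heterozygous and 6.37, 6.55 and 6.56 in homozygous arrays. The homozygous arrays began where the wild-type arrays ended. Their difference from wild type was 0.17 ± 0.07 (SE), with a 95% interval from 0.03 to 0.32 (limma adjusted p = 0.087). Without homozygous replicate 1 it was 0.23 and passed (adjusted p = 0.014), as did homozygous minus heterozygous, at 0.22 (adjusted p = 0.0319). The difference from wild type also passed with quantile normalization, at 0.25, and with array weights, at 0.19. Homozygous minus heterozygous, 0.16 as deposited, passed with reference gene centring, at 0.26, or 0.29 without Actb. The heterozygous difference was 0.02, with a 95% interval from -0.13 to 0.16. Probe set 1448962_at read between 3.70 and 3.99 on the 9 arrays, and the genotypes overlapped. Both probe sets are annotated to 1 accession, and whether either reads the transcript of the ΔC95 allele was not analysed here.

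Myh14 encodes nonmuscle heavy chain IIC. Its probe set read 6.59, 6.40 and 6.79 in wild-type, 6.56, 6.47 and 6.51 in heterozygous and 6.81, 6.76 and 6.67 in homozygous arrays. The wild-type arrays spanned the heterozygous values, and homozygous arrays were above heterozygous ones. Homozygous minus heterozygous was 0.24, with a 95% interval from 0.05 to 0.43, and did not pass (limma adjusted p = 0.111). It passed with arrays centred on reference genes, at 0.34, and with quantile normalization, at 0.29.

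Of the light chains, Myl9 had the largest difference. Myl9 encodes a regulatory light chain of smooth muscle that is also made in platelets. Its only probe set, 1452670_at, read 5.03, 5.12 and 5.03 in wild-type, 5.26, 5.34 and 5.13 in heterozygous and 4.49, 4.64 and 4.39 in homozygous arrays. The genotypes did not overlap, with heterozygous arrays above and homozygous arrays below wild type. Homozygous blood was lower than wild type by a log2 difference of -0.56 ± 0.08 (SE, n = 3 per group; 1.47-fold, limma adjusted p = 0.000184) and lower than heterozygous by -0.74 ± 0.08 (1.67-fold, limma adjusted p = 4.64e-05). Both calls held in every alternative run. The heterozygous difference of 0.18 did not pass (limma adjusted p = 0.213) and was 0.05 with reference gene centring.

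The CArG box is the DNA element bound by serum response factor, a known regulator of smooth muscle genes. It was searched in the 250 bases before the annotated starts of the member genes, in RefSeq promoters of GRCm38.p6, on both strands, which read alike for this element. Of 8 member genes with a promoter in the table, Myl9 and Myl6 held a match, against 1.62% of 27025 genes and 1.47% of 32851 promoters. Myh11 had no promoter there and was not searched. The Myl9 window is chr2:156775214-156775463 on the plus strand, with the match beginning 161 bases before the start. The Myl6 window, at a second start of that gene, is chr10:128493010-128493259 on the minus strand, with the match beginning 50 bases before the start. Both are shown 5′ to 3′ as the only member windows with a match, with the CArG box in capitals. These matches describe letters only, and a role of the element in either gene was not tested.
Myl9: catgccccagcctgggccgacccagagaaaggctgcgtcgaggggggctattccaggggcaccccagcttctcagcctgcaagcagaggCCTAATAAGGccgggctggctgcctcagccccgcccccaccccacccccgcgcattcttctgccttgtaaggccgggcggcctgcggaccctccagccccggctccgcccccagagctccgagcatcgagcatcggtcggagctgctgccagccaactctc
Myl6: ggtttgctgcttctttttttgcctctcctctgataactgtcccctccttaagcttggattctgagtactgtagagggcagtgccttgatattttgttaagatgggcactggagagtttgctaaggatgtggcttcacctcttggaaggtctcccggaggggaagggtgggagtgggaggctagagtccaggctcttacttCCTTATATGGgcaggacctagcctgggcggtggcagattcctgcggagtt

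Myl12a and Myl12b encode closely similar regulatory light chains of nonmuscle myosin and lie next to each other on chromosome 17 in RefSeq, with 0 genes listed between them. Transcripts of near-identical paralogs can bind the same array probes, and how far these probe sets separate the pair was not analysed here. For Myl12a, probe set 1420820_at read 10.65, 10.67 and 10.71 in wild-type, 10.90, 10.87 and 10.94 in heterozygous and 10.82, 10.77 and 10.77 in homozygous arrays. The genotypes did not overlap, with wild type lowest and heterozygous highest. The heterozygous difference of 0.23 ± 0.05 passed (SE; 1.17-fold, limma adjusted p = 0.0214), and the homozygous difference of 0.11 did not (limma adjusted p = 0.187). The heterozygous call was lost without wild-type replicate 1 or 2 or heterozygous replicate 1 or 3, with adjusted p from 0.0159 to 0.0817 over the 9 omissions, and with arrays centred on reference genes, at 0.09.

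For Myl12b, probe set 1428608_at read 9.34, 9.26 and 9.28 in wild-type, 9.45, 9.43 and 9.42 in heterozygous and 9.20, 9.06 and 9.08 in homozygous arrays. As for Myl9, heterozygous arrays lay above and homozygous arrays below wild type. Homozygous minus heterozygous was -0.32 ± 0.06 (SE, n = 3 per group; 1.25-fold, limma adjusted p = 0.00325). It passed in every alternative run, but was smaller with reference gene centring, at -0.22, or -0.19 without Actb (adjusted p = 0.0414). The heterozygous difference from wild type was 0.14 and did not pass (limma adjusted p = 0.218). Homozygous minus wild type was -0.18 ± 0.06 and passed narrowly (1.13-fold, limma adjusted p = 0.0475). It was lost in 8 of the 9 omissions of an array, with adjusted p from 0.0151 to 0.148, and passed only without homozygous replicate 1. With the replicate number as a block it was also lost (adjusted p = 0.0567). The second probe sets, 1450013_at of Myl12a and 1428609_at of Myl12b, passed in no comparison, and for Myl12b the homozygous difference was 0.18, opposite in sign to that of the brighter probe set.

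Myl6 encodes the essential light chain of smooth and nonmuscle myosin. Its own probe set read from 6.69 to 6.84 in wild-type, 6.80 to 6.89 in heterozygous and 6.73 to 6.97 in homozygous arrays. All genotypes overlapped and both differences from wild type were 0.08. The pair of probe sets that Myl6 shares with the predicted genes Gm8894 and Gm5526 read otherwise. Probe set 1424269_a_at was at 11.75, 11.76 and 11.77 in wild-type, 11.42, 11.41 and 11.44 in heterozygous and 11.59, 11.58 and 11.61 in homozygous arrays. Heterozygous arrays were lowest, by -0.34 ± 0.05 (SE; limma adjusted p = 0.00143), and homozygous arrays differed by -0.17 ± 0.05 (limma adjusted p = 0.0393), a call lost without wild-type replicates 1, 2 or 3, heterozygous replicates 1 or 2, or homozygous replicates 2 or 3, each in turn. Probe set 1434396_a_at gave -0.20 in heterozygous blood (limma adjusted p = 0.0306) and -0.07 in homozygous blood, which did not pass. The heterozygous call of that probe set was lost in each omission of a wild-type or heterozygous array. These values cannot be assigned to 1 gene.

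Mylk phosphorylates the regulatory light chains. It passed by none of its 3 probe sets. Probe set 1425504_at read 5.96, 5.92 and 5.96 in wild-type, 5.85, 5.56 and 5.99 in heterozygous and 5.80, 6.09 and 6.04 in homozygous arrays. The mutant arrays scattered on both sides of the narrow wild-type range. The difference was 0.03 in homozygous blood, with a 95% interval from -0.20 to 0.26, and -0.15 in heterozygous blood, with an interval from -0.38 to 0.08. The other probe sets had genotype means of 3.91 to 4.12 and 3.21 to 3.34.

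CBFβ binds DNA through RUNX proteins, whose core motif was searched as TGTGGT on both strands of the same windows. It was found in 1 of the 8 member genes searched, Mylk, against 15.9% of genes and 14.0% of promoters. Myh11 was again not searched. The Mylk window is chr16:34784700-34784949 on the plus strand and holds 2 matches, on the minus strand, beginning 93 and 83 bases before the start. It is shown 5′ to 3′ as the only member window with the motif of the factor that the allele concerns, with both matches in capitals. The matches are a description of the letters and not of binding.
Mylk: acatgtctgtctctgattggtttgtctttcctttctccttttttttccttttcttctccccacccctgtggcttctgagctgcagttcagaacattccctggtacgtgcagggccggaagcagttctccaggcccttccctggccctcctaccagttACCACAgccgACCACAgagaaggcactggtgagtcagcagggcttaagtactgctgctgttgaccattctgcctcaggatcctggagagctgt

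**Figure D2:**
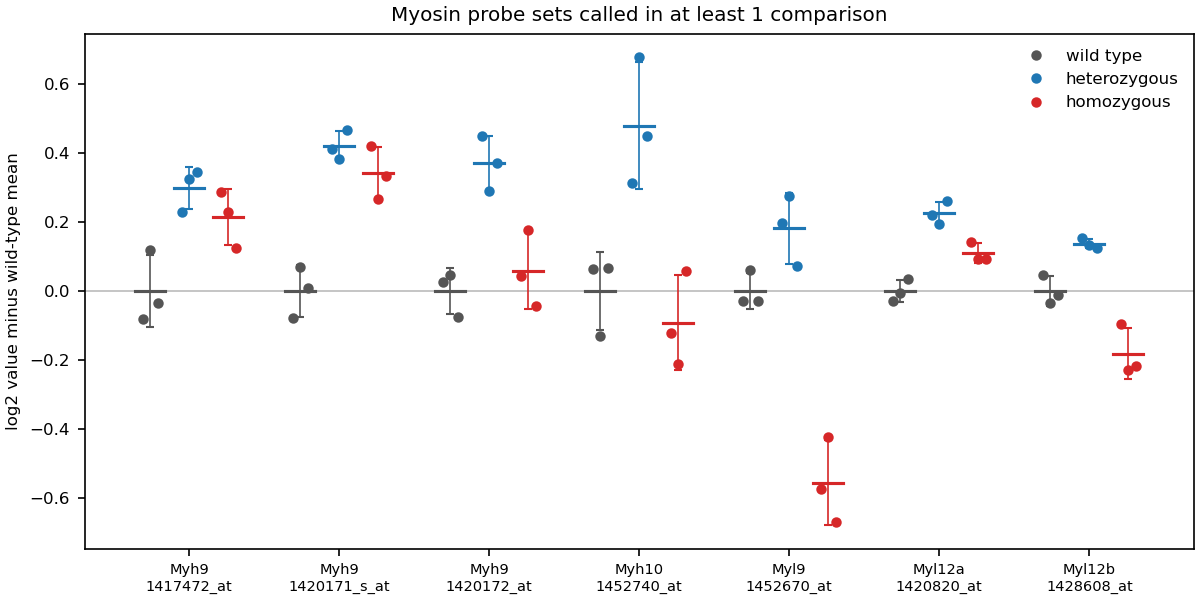
Log2 value minus the wild-type mean (y axis) on each array for the 7 probe sets that passed in at least 1 comparison; points are arrays, horizontal lines are means and whiskers are SD (n = 3 per genotype). Heterozygous arrays lie above the wild-type mean in every probe set, while homozygous arrays lie below it for Myl9 and Myl12b.

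Markers of other cell types moved with genotype as well. Counts of markers are by each gene's brightest probe set, as are the shares over all genes, of which 25.6% passed in homozygous and 11.8% in heterozygous blood. Of 10 measured megakaryocyte and platelet markers, 9 were lower in homozygous blood and 2 higher in heterozygous blood, among them Pf4 at 0.52. The heterozygous count ran from 1 to 6 over the alternatives. Their summed level, on the log2 scale, ranged from 10.45 to 10.48 in wild-type, 10.76 to 10.81 in heterozygous and 9.03 to 9.17 in homozygous arrays. Of 10 mesenchyme markers, 5 were lower in homozygous blood and 2 higher in heterozygous blood, Col3a1 and Col1a2. Col3a1 was at -0.94 and 0.93, and Col1a2 at -0.49 and 0.53. Between homozygous and heterozygous blood 5 were lower and 1 higher, against 10.4% and 5.38% of all genes. The higher one was Pdgfrb, at 0.29 (limma adjusted p = 0.0319). The summed level of the mesenchyme list ranged from 8.92 to 8.94, 9.21 to 9.29 and 8.50 to 8.59 in the same order. The order of the genotypes in the summed levels of both lists is that of Myl9 and Myl12b, though single markers differ. The part of these cell types in those results was not tested.

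Skeletal and cardiac muscle markers were higher in heterozygous blood in 4 of 10. Actc1 was at 2.50 and the other 3, Myog, Tnnc1 and Tnni1, at 0.29 to 0.62. Most of the rise in the summed level was that of Actc1. The summed level was 8.48 to 8.51 in wild-type, 9.06 to 9.10 in heterozygous and 8.49 to 8.61 in homozygous arrays. Their part in the heterozygous rises of Myh10 and Myh9 was not tested. Of 12 macrophage markers, 11 were lower in homozygous and 5 in heterozygous blood, with summed levels of 11.06 to 11.08, 10.67 to 10.70 and 8.40 to 8.42. None of the 8 endothelium markers passed in any comparison by limma, and at most 1 did in any alternative. Of 7 neutrophil markers 3 were lower in homozygous and 4 in heterozygous blood. Of 8 red cell markers, 2 were lower and 1 higher in homozygous blood, and 1 was lower in heterozygous blood, the latter a share near that of all genes. The homozygous count of 3 was 1 in most omissions of an array. No marker is at 0 on this scale, and signal over background is unknown.

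Smooth muscle markers passed less often than all genes in homozygous against wild-type blood, and at shares near that of all genes in the other comparisons. Of 14 measured smooth muscle markers 0 passed in homozygous blood, against 25.6% of all genes, and 1 in heterozygous blood, against 11.8%. That gene was Acta2, smooth muscle actin, at 5.02, 5.21 and 4.97 in wild-type, 5.58, 5.85 and 6.06 in heterozygous and 5.09, 5.34 and 5.30 in homozygous arrays. The heterozygous arrays stood apart, by 0.76 ± 0.11 (SE; 1.69-fold, limma adjusted p = 0.00138). The calponin gene Cnn1 had a homozygous difference of 0.06 and the desmin gene Des 0.01, and neither passed. Between homozygous and heterozygous blood 2 of the 14 passed, against 15.8% of all genes, Acta2 at -0.58 and Pdlim7 at -0.20. The Pdlim7 call was lost in 8 of the 9 omissions of an array, all but heterozygous replicate 3. The summed level of the list ranged from 9.10 to 9.11 in wild-type, 9.19 to 9.26 in heterozygous and 9.12 to 9.15 in homozygous arrays.

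**Figure D3:**
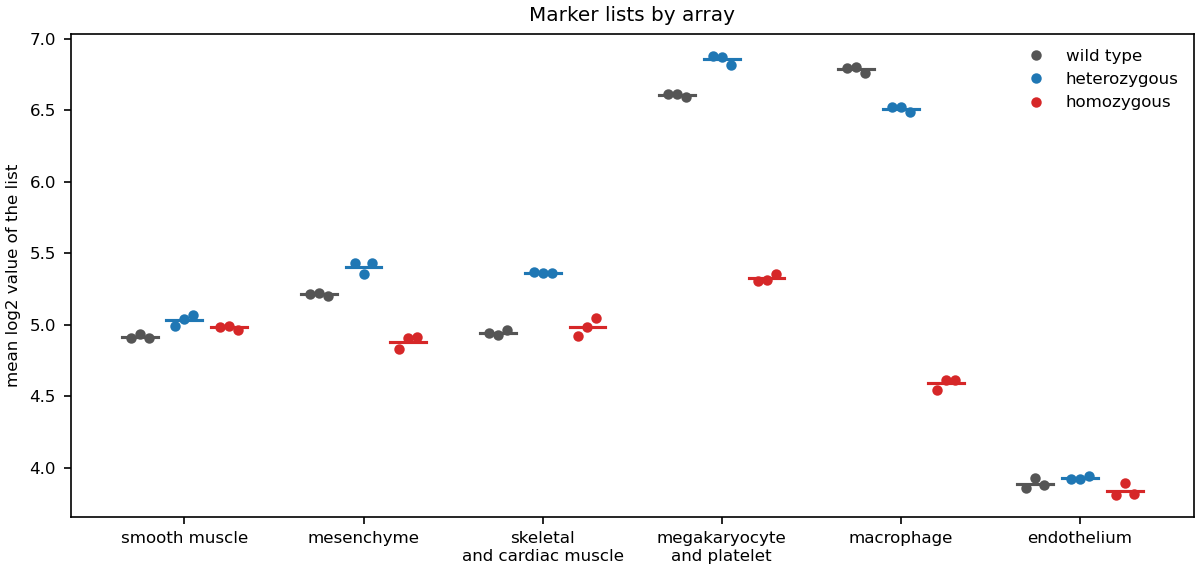
Mean log2 value (y axis) on each array of the smooth muscle, mesenchyme, striated muscle, megakaryocyte, macrophage and endothelium marker lists; points are arrays and lines are means (n = 3 per genotype). Megakaryocyte and mesenchyme lists are highest in heterozygous and lowest in homozygous arrays, and the macrophage list is lowest in homozygous arrays. The smooth muscle list spans a narrow range, with every mutant array above the wild-type arrays. In the endothelium list wild-type arrays overlap both mutant genotypes.

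Several genes that control myosin light chain phosphorylation changed. Of 23 measured actomyosin regulators, 8 were lower and 4 higher in homozygous blood, against 14.9% lower and 10.7% higher among all genes, with a list median of 0.03 against 0.05. The kinase gene Rock1, whose product phosphorylates the light chains and inhibits their phosphatase, read 7.94, 7.88 and 7.99 in wild-type, 7.50, 7.47 and 7.61 in heterozygous and 6.52, 6.41 and 6.43 in homozygous arrays. The genotypes did not overlap, and Rock1 was lower in homozygous blood by -1.48 ± 0.06 (SE, n = 3 per group; 2.80-fold, limma adjusted p = 1.75e-08). Other regulators that fell were the GTPase gene Rhob at -1.12, the myosin phosphatase targeting subunit gene Ppp1r12a at -0.95 and the phosphatase catalytic subunit gene Ppp1cb at -0.85. Ppp1r14b, an inhibitor of that phosphatase, rose by 0.85 (limma adjusted p = 1.03e-06).

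In heterozygous blood 6 of the 23 regulators were lower and 2 higher, against 7.04% and 4.79% of all genes. Mylip, a ubiquitin ligase that binds myosin regulatory light chain, was at -0.44, Rock1 at -0.41, Ect2, an exchange factor for small GTPases in cell division, at -0.38, and Ppp1r14b at 0.61. Between homozygous and heterozygous blood 7 were lower and 2 higher, against 10.4% and 5.38% of all genes.

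Actin filament partners held the largest fall in the 5 partner lists, that of Tmsb4x. Of 24 measured, 9 were lower and 5 higher in homozygous blood, against 14.9% and 10.7% of all genes. In heterozygous blood 2 were lower and 8 higher, against 7.04% and 4.79% of all genes. The list median was -0.15 in homozygous blood, against 0.05 over all genes, and 0.14 in heterozygous blood, against 0.01. The heterozygous count of 10 fell to 4, all higher, without wild-type replicate 1 or 3 or heterozygous replicate 1 or 2, and to 6 without wild-type replicate 2. With reference gene centring 4 were higher and 3 lower. Tmsb4x, which encodes the actin-sequestering peptide thymosin β4, read 11.46, 11.43 and 11.46 in wild-type, 11.38, 11.39 and 11.44 in heterozygous and 9.19, 8.88 and 8.96 in homozygous arrays. Only the homozygous arrays were low, by -2.44 ± 0.08 (SE; 5.42-fold, limma adjusted p = 2.39e-09). The focal adhesion gene Vcl was at -1.21, the actin-severing protein gene Gsn at -0.56 and the tropomyosin gene Tpm1 at -0.49. In heterozygous blood the capping protein gene Capg rose by 0.55, the filamin gene Flna by 0.37, the profilin gene Pfn1 by 0.36 and Actg1, a cytoplasmic actin gene, by 0.35. Between homozygous and heterozygous blood 12 of 24 were lower and 0 higher, against 10.4% and 5.38% of all genes. With reference gene centring 8 were lower and 1 higher, or 2 higher without Actb. Of the 12, Tpm4, Zyx and Gsn had passed in both comparisons with wild type, higher in heterozygous and lower in homozygous blood. Tpm4 was at 0.27 and -0.47, Zyx, a focal adhesion gene, at 0.33 and -0.45, and Gsn at 0.30 and -0.56. The heterozygous calls were the weaker ones, with limma adjusted p of 0.0264 for Tpm4, 0.0271 for Zyx and 0.0308 for Gsn.

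**Figure D4:**
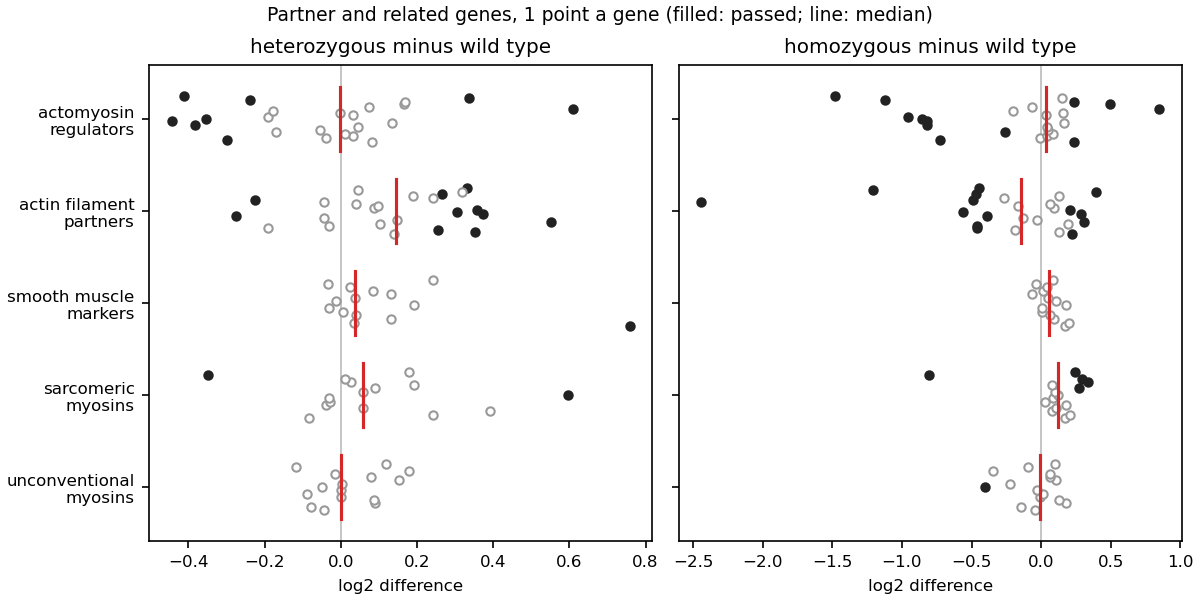
Log2 difference from wild type (x axis) of each gene in 5 lists (y axis), heterozygous on the left and homozygous on the right, on x axes of different range; filled points passed and red lines are list medians. Tmsb4x at -2.44 and Rock1 at -1.48 lie farthest left in homozygous blood, and smooth muscle markers lie close to 0 there.

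Other classes of myosin changed in either direction or not at all. Of 15 sarcomeric myosin genes and kinases, 4 were higher and 1 lower in homozygous blood, against 10.7% and 14.9% of all genes. With reference gene centring, with cyclic loess or with only the 2 groups in the fit, 2 were higher and 1 lower. The 4 rises were 2 without wild-type replicate 1 or 2 or homozygous replicate 1 or 3, and 1 without wild-type replicate 3. The one that fell was Mylk3, the cardiac light chain kinase gene, which read 9.02, 9.01 and 9.09 in wild-type, 8.68, 8.68 and 8.71 in heterozygous and 8.24, 8.20 and 8.26 in homozygous arrays. The genotypes did not overlap, with a homozygous difference of -0.81 ± 0.05 (SE; 1.75-fold, limma adjusted p = 5.19e-07) and a heterozygous one of -0.35 ± 0.05 (limma adjusted p = 0.00154). The 4 that rose, Myl7, Mylk2, Myl3 and Mylpf, did so by 0.24 to 0.33. Myl1, a skeletal muscle light chain gene, rose by 0.60 in heterozygous blood, from a wild-type mean of 3.07. Of 15 unconventional myosins, which carry cargo or tether membranes, only Myo1g passed in homozygous blood, lower at -0.40, against 25.6% of all genes. None passed in heterozygous blood by limma, against 11.8%. Between homozygous and heterozygous blood 2 genes in each of these lists were lower and 0 higher, a share of 13.3% near the 15.8% of all genes. Myl1 was at -0.48 and Mylk3 at -0.46, and of the unconventional myosins Myo7a was at -0.52 and Myo1g at -0.36.

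Genes with the profile most like that of a member were sought for Myl9 and Myh10, whose genotype means spanned the widest range among members, 0.74 and 0.57. Likeness was the root mean square difference of log2 values over the 9 arrays, after centring each gene on its own mean, among 18192 other genes. Closest to Myl9 were Septin9, a cytoskeletal GTPase gene, at 0.05, Naa50, an acetyltransferase gene, at 0.06 and Rdx, which encodes the membrane-actin linker radixin, at 0.07, where the median gene was at 0.35. Closest to Myh10 were the zinc finger genes Zfp362 and Zfp423 at 0.09 each, and Susd1 at 0.11, where the median gene was at 0.31. The genotype means of Septin9 were 5.93 for wild-type, 6.12 for heterozygous and 5.32 for homozygous arrays, and those of Zfp423 were 3.01, 3.45 and 2.90.

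**Figure D5:**
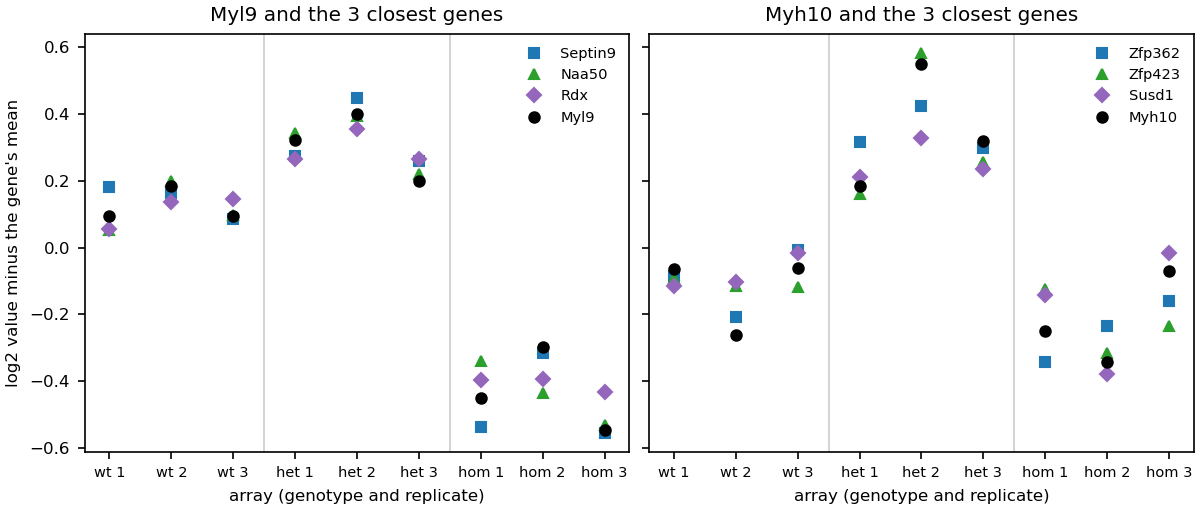
Log2 value minus each gene's own mean (y axis) on the 9 arrays (x axis; wt, het and hom with the replicate number) for Myl9 and Myh10 in black and the 3 genes closest to each. All 4 genes of the Myl9 panel are lowest on the homozygous arrays, and all 4 of the Myh10 panel are highest on the heterozygous arrays.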

How the data were processed

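Total RNA of pooled embryonic blood was extracted with RNA-STAT, labelled by a one-cycle method and hybridized to Affymetrix mouse genome arrays, per the labels' protocols. RMA, Partek 6.5 and Affymetrix Expression Console 1.0 appear, with no step assigned, among the tools per the submitters' processing notes. The authors deposited 1 table of 45101 probe sets by 9 arrays, taken as log2 values from its range of 1.49 to 14.56, since the scale is not stated. The depth of an array is not defined by read counts, and detection calls were not used here. After removal of 64 control probe sets, limma 3.58.1 in R 4.3.3 fitted genotype to all 9 arrays (lmFit, contrasts.fit, eBayes), with 2-sided tests adjusted by Benjamini-Hochberg within each comparison.

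GEO's platform annotation named 1 gene for 34945 probe sets, several for 932 and none for 9160. All 19 member probe sets matched RefSeq by Entrez identifier with unchanged symbols. Listed genes were read by the probe set with the highest mean over all arrays. The members and lists were chosen with earlier results of these data known. Named are all members, Cbfb and the closest profiles. From each list up to 4 genes that passed in a comparison are named, or up to 2 that did not. Tpm4, Mylpf, Pdgfrb and the probe sets shared by Myl6 were named after their values were seen. Promoters came from RefSeq, GRCm38.p6, cut to the 250 bases before the start.

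The fit was tested on simulated arrays. Alternatives left out the 40% dimmest probe sets or the third genotype, blocked on the replicate number, or used 2 other variance priors, 5 scalings, array weights, 1 probe set per gene, no _x_at or _s_at probe sets, a threshold of 0.01 and omission of each array in turn. The reference genes were Actb, Hprt, Tbp, Ywhaz, Sdha, B2m and Pgk1. Actb, also counted among the actin filament partners, was itself higher in homozygous than wild-type blood by 0.22 (limma adjusted p = 0.0103). Centring was therefore read with and without it. A sign change was counted as a reversal where the difference passed in either setting. Same-numbered arrays of different genotypes did not deviate together (correlations of -0.02 to 0.07), so the number was not taken as a pairing. Figures were drawn with matplotlib 3.10.9.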

Additional observations from a re-analysis of the deposited data

Results flagged for a closer look

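Myl9 and Myl12b were flagged because every heterozygous array lay above, and every homozygous array below, all wild-type arrays. The difference between the mutant genotypes itself also passed the test (limma). Homozygous minus heterozygous was -0.74 for Myl9 and -0.32 for Myl12b by their brightest probe sets. The heterozygous differences from wild type, 0.18 and 0.14, did not pass (limma adjusted p = 0.213 and 0.218), and with arrays centred on reference genes they were 0.05 and 0.0039. Heterozygous and wild-type arrays did not overlap in 24.1% of all probe sets, and homozygous and wild-type arrays in 32.4%. The share of all probe sets with the whole pattern was not counted. The pattern was not particular to members, since the listed genes Tpm4, Zyx, Gsn, Pf4 and Col3a1 also showed it. The dimmer Myl12b probe set did not show it, with overlapping genotypes and homozygous minus heterozygous at 0.06.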

How the results depend on the processing

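Of 57 member differences (19 probe sets in 3 comparisons), 45 stayed on their side of the threshold in every setting in which they could be computed, and 0 reversed among those that passed. The count of member probe sets passing in homozygous against wild-type blood, 3 as reported, was 5 with an intensity trend in the variance prior, of which 3 were higher, and 1 without _x_at and _s_at probe sets. That setting removes the Myh9 probe set that passed, and Myl12b kept its difference of -0.18 at an adjusted p of 0.0536 (limma). In heterozygous against wild-type blood the count of 5 became 3 with arrays centred on reference genes, with or without Actb, 3 with 1 probe set per gene, where 9 were tested, and 2 at a threshold of 0.01. Reference gene centring moved the median difference of all probe sets to -0.13 in that comparison, and the calls lost there were of Myl12a and the brightest Myh9 probe set. Over the omissions of each array the counts ran from 2 to 4 in homozygous against wild-type, 3 to 5 in heterozygous against wild-type and 3 to 5 in homozygous against heterozygous blood. For heterozygous against wild type the count was 3 without wild-type replicate 1, without wild-type replicate 2 and without heterozygous replicate 3. Genes passing over the 5 partner lists, 91 in all, numbered 32, 21 and 27, against 25.6%, 11.8% and 15.8% of all genes. They ran from 27 to 33, 14 to 21 and 19 to 26 over these omissions. Reference gene centring changed their directions. In heterozygous against wild-type blood 12 higher and 9 lower became 7 and 14. In homozygous against heterozygous blood 2 higher and 25 lower became 12 and 19, or 18 and 19 without Actb. The members in that last comparison, 0 higher and 4 lower, became 2 and 3, and the median of all probe sets moved to 0.13, or 0.16 without Actb. With the replicate number as a block the members passing numbered 2, 5 and 4. That block ended the call of Myl12b in homozygous against wild-type blood (adjusted p = 0.0567) and no other call of a member. Among all probe sets passing in homozygous against wild-type blood, 41.7% were higher, and from 31.7% with reference genes to 48.5% with quantile normalization. Scanner values were not used, so signal over background is unknown and dim probe sets may not resolve a change.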
